A study of Homo sapiens with 13 samples.

Results

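The DLX and MSX genes encode homeodomain transcription factors, and the 8 human genes DLX1 to DLX6, MSX1 and MSX2 were chosen by gene symbol. Each matched 1 of the 61546 features in both count tables. DLX and MSX proteins bind AT-rich DNA sites through closely similar homeodomains. MSX proteins act mainly as repressors and DLX proteins mainly as activators. The genes are known as targets of BMP signaling at the border of the neural plate, in surface ectoderm and in the limb bud, and DLX genes also pattern the jaw and specify forebrain interneurons.

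Bulk RNA-seq measured expression in RUES2 GFP::SMAD4, human embryonic stem cells in which SMAD4, the shared partner of receptor-activated SMADs, carries a fluorescent tag. The study asked how the level and duration of BMP signaling relate to gene expression and to the choice between amnion-like and pluripotent fate. Every library came from this single genetically modified line, grown at low density with ROCK inhibitor in mTeSR1 medium, without the embryonic tissues in which these genes are usually studied.

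The time series held 7 libraries of ribosomal RNA-depleted RNA: 2 at 0 h and 1 each at 4, 12, 20, 28 and 42 h of 100 ng/mL BMP4 with 5 µM IWP2, which blocks Wnt secretion. The 0 h libraries carry a label with this treatment as well, and they were taken as cells collected at its start. The dose response held 6 libraries of polyA-selected RNA, all at 5 h: BMP4 and IWP2 with LDN-193189 (LDN), which inhibits BMP type I receptors, at 0, 10, 30, 100 or 300 nM, and untreated cells without BMP4, IWP2 or LDN. RNA was extracted and selected differently in these experiments, so levels were compared within each of them only. No source says whether the 0 h pair came from separate cultures. The p-values of each time against 0 h therefore measure the spread between these libraries, which may be technical. For the slopes over hours and over LDN dose, SEs and p-values measure the scatter about a straight line. That scatter includes any bend in the course, and no dose had a replicate.

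Totals ranged from 37957385 to 71333471 counts in the time series and from 15600931 to 33989998 in the dose response. A floor of 3 counts was worth 0.042 to 0.079 and 0.088 to 0.192 CPM (counts per 1000000 counts of the library) respectively. All 8 pluripotency markers were above 1 CPM in every library but the one at 42 h, where PRDM14 was at 0.196 CPM and NANOG at 1.08 CPM. From 0 h to 42 h ZFP42 went from 179 to 221 CPM, and every other marker of this list was lower at 42 h. The fall was small for POU5F1, from 1362 to 1145 CPM, and large for SOX2, from 382 to 11.6 CPM. The summed level of 7 amnion markers went from 2.78 and 2.82 CPM at 0 h to 3921 CPM at 42 h, beside the DLX and MSX genes. Most of this sum was HAND1, at 2919 CPM, while VTCN1 was at 10.1 and BIN2 at 1.68 CPM at 42 h. The 4 neural ectoderm markers summed to at most 4.90 CPM and the 4 markers of primitive streak and mesoderm to at most 4.41 CPM in any library. Of 6 trophoblast markers, CGB5, PSG3, SIGLEC6 and ELF5 were at 0 at 42 h, while NR2F2 went from 0.260 CPM at 0 h to 17.7 at 28 h and 12.8 CPM at 42 h. The neural crest list went from 62.0 and 83.0 CPM at 0 h to 3.58 CPM at 42 h, mostly through FOXD3. Mitochondrial genes took 7.60% and 4.29% of the counts at 0 h, 4.23% at 4 h and less at each time from 12 h on, down to 2.0% at 42 h. They took 7.89% in untreated cells and 4.22% to 4.49% in the 5 libraries with BMP4 of the dose response. The part of these shifts in the results below was not tested, and in bulk RNA more expressing cells cannot be told apart from more RNA per cell.

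The 6 DLX genes lie in 3 convergent pairs in GRCh38, and the MSX genes stand alone. DLX1 (chr2:172084740-172089677, plus strand) lies beside DLX2 (chr2:172099438-172102900, minus strand). DLX4 (chr17:49968588-49974959, plus strand) is paired with DLX3 (chr17:49990005-49995224, minus strand), with 15046 bases between them. DLX6 (chr7:97005553-97011040, plus strand) is paired with DLX5 (chr7:97020396-97024950, minus strand), with 9356 bases between them. MSX1 occupies chr4:4859665-4863936 and MSX2 chr5:174724582-174730896, both on the plus strand. The antisense RNA gene DLX6-AS1 spans DLX6 and shares 759 of its 3445 exon bases. No source states whether the counting used strand, so reads from the shared bases cannot be told apart.

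The 250 bases before the start of MSX2 and DLX6, which had risen by 4 h, and of MSX1, which was furthest below its highest level at 28 h, are shown so that the sequence beside an early and a late start can be compared. They are RefSeq sequences (GRCh38.p14), written 5′ to 3′ on the strand of the gene. Capitals mark matches, on either strand, to the following motifs. They are GGCGCC (a palindrome recognised by BMP-activated SMADs), GTCTAGAC (a palindromic SMAD site) and CAGAC (the SMAD box). The others are the BMP-responsive element (a GC-rich site and a SMAD box a few bases apart) and TAATTA (a homeodomain core).
MSX2, chr5:174724332-174724581, plus strand: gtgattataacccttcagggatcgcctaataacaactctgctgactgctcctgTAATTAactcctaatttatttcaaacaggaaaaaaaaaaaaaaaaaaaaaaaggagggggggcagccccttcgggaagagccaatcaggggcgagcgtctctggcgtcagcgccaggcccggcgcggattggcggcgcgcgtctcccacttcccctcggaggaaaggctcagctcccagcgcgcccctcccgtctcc
DLX6, chr7:97005303-97005552, plus strand: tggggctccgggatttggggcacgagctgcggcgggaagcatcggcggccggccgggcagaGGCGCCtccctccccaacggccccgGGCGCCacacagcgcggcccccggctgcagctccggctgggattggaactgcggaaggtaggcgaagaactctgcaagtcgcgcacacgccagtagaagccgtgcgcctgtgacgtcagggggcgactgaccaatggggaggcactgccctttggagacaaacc
MSX1, chr4:4859415-4859664, plus strand: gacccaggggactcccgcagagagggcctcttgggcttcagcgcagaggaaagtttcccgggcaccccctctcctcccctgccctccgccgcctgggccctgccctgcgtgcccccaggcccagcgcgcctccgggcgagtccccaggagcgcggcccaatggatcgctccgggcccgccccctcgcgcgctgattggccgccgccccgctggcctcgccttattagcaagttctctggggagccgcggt
The MSX2 window held 1 TAATTA, beginning 197 bases upstream of the start, a motif found in 4.35% of 35116 human promoter windows of this length. The DLX6 window held GGCGCC at 189 and 164 bases upstream, and 16.4% of all windows hold it at least once. None of the 5 motifs was in the MSX1 window. DLX1 and DLX2, the other members with a window in the table, each held 1 CAGAC, which 38% of all windows contain. GTCTAGAC and this form of the BMP-responsive element occur in 0.182% and 0.256% of all windows and were in none of the 5 members' windows. The MSX2 window holds a similar arrangement with a shorter spacing, which the form searched does not match. The DLX2 window holds one too, and the share of all windows with such spacings was not counted. The GC content of the MSX2 window was 55.6%, against 70% for DLX6 and 74% for MSX1, with a median of 58% over all windows. These matches describe letters only and say nothing of binding.

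MSX2, a repressor that is a classical BMP target, was the most strongly expressed member and one of the first to rise. Its level was 0.474 and 0.589 CPM at 0 h, and 21.6, 115, 295, 354 and 789 CPM at 4, 12, 20, 28 and 42 h. Both 0 h libraries lay far below every later one, and each library was above the one before it in time. The level at 4 h was 39.4 times that of the pooled 0 h libraries (95% interval 30.4 to 52.1, counting error only). In edgeR's quasi-likelihood test with time as a factor, the log2 change from 0 h was 5.18 (SE 0.39, Benjamini-Hochberg adjusted p = 8.81e-38) at 4 h and 10.80 (SE 0.45) at 42 h. This fit had 1 residual degree of freedom, from the 0 h pair, and assumed that each lone later library varied like that pair.

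MSX1, the paralog that shares a homeodomain and many expression sites with MSX2, rose much later. It was at 0.184 and 0.154 CPM at 0 h, and at 0.199, 0.645, 3.50, 21.2 and 108 CPM at the same later times. The 4 h library lay within the counting error of the 0 h libraries, and 12 h was the first time to stand above them. The MSX1 level at 42 h was 5.13 times that at 28 h (4.82 to 5.45, counting error only), against 2.23 times for MSX2 (2.19 to 2.26) and between 0.930 and 1.20 times for the DLX genes. On the per-length FPKM scale, the level of MSX2 was 205 times that of MSX1 at 12 h and 8.19 times at 42 h. The linear trend of MSX1 had the smallest SE of the 8 members, with a slope of 0.25 log2 per hour (SE 0.011, edgeR's quasi-likelihood test, adjusted p = 6.15e-06).

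DLX5 and DLX6, a linked pair active in the jaw, limb and bone, went from near absence to most of their final level within 20 h. DLX5 was at 0.0263 and 0.0140 CPM at 0 h, 1 count in each library, and at 0.309, 5.39, 29.9, 45.2 and 47.6 CPM at 4, 12, 20, 28 and 42 h. DLX6 was at 0.105 and 0 CPM at 0 h, and at 1.92, 10.3, 41.7, 56.3 and 52.4 CPM at the later times. Every later library was above both 0 h libraries for each of these genes, and most of the rise was over by 20 h, when DLX5 stood at 62.9% and DLX6 at 74.1% of its highest level. In the time series the FPKM of DLX5 was 0.259 times that of DLX6 at 4 h, where DLX5 had 14 counts, 0.842 times at 12 h and 1.47 times at 42 h. In the separate 5 h library with BMP4 and 0 nM LDN it was 1.08 times that of DLX6. The log2 change from 0 h to 4 h was 5.46 (SE 0.56) for DLX6 and 3.78 (SE 0.85) for DLX5, and both passed edgeR's test. The call for DLX6 at 4 h, which rests on 4 and 0 counts at 0 h against 87 counts, was lost with DESeq2's Wald test (log2 change 5.15, adjusted p = 0.646).

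DLX6-AS1, the antisense RNA also called EVF2 in the forebrain, rose with the pair. It was at 0 and 0.0140 CPM at 0 h, and at 1.21, 4.50, 8.09, 11.4 and 8.68 CPM from 4 to 42 h. Its level was highest at 28 h, and its log2 change of 6.60 (SE 0.73) at 4 h was exceeded by 15 of 20488 genes tested. DLX2-DT, a divergent RNA gene 106 bases from DLX2, had a highest level of 0.220 CPM. No other gene nearest to a member, apart from the members, reached 0.25 CPM in any library.

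DLX2 and DLX1, the linked pair best known for specifying forebrain interneurons, differed in level and in onset. DLX2 was at 0.290 and 0.182 CPM at 0 h and at 0.507, 2.56, 19.6, 47.3 and 57.0 CPM from 4 to 42 h. DLX1 had 0 and 3 counts at 0 h (0 and 0.0421 CPM), and its level was 0.0221, 0.0717, 1.53, 6.09 and 6.06 CPM from 4 to 42 h. DLX1 was thus at or near the floor through 12 h, while DLX2 had already passed the test at 12 h (log2 change 3.45, SE 0.40). At 42 h the FPKM of DLX2 was 6.67 times that of DLX1. The DLX1 level at 20 h was 21.4 times that at 12 h (8.09 to 80.2), and the interval of this step overlapped that of DLX2 (7.65, 6.43 to 9.17) and none of the other DLX genes.

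DLX3 and DLX4, the pair associated with epidermis and placenta, were both low at 0 h and differed in level at 42 h. DLX3 was at 0.158 and 0.252 CPM at 0 h and at 1.24, 2.24, 12.0, 34.3 and 34.1 CPM from 4 to 42 h. DLX4 was at 0.474 and 0.294 CPM at 0 h and at 0.706, 0.466, 2.05, 5.60 and 6.16 CPM from 4 to 42 h. The FPKM of DLX3 was 0.279 times that of DLX4 at 0 h and 4.17 times at 42 h. The 0 h ratio rests on 6 and 18 counts of DLX3 and 18 and 21 counts of DLX4. In the second 0 h library their CPM intervals overlapped (0.150 to 0.399 and 0.182 to 0.450), so their order at 0 h is uncertain. DLX3 passed the test at 4 h (log2 change 2.37, SE 0.44, edgeR's quasi-likelihood test, adjusted p = 4.26e-06), and DLX4 first at 20 h (2.50, SE 0.44). DLX4 had the smallest change of the family, 4.35 (SE 0.42) at 42 h, where 405 of 20488 genes had a larger one.

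**Figure D1:**
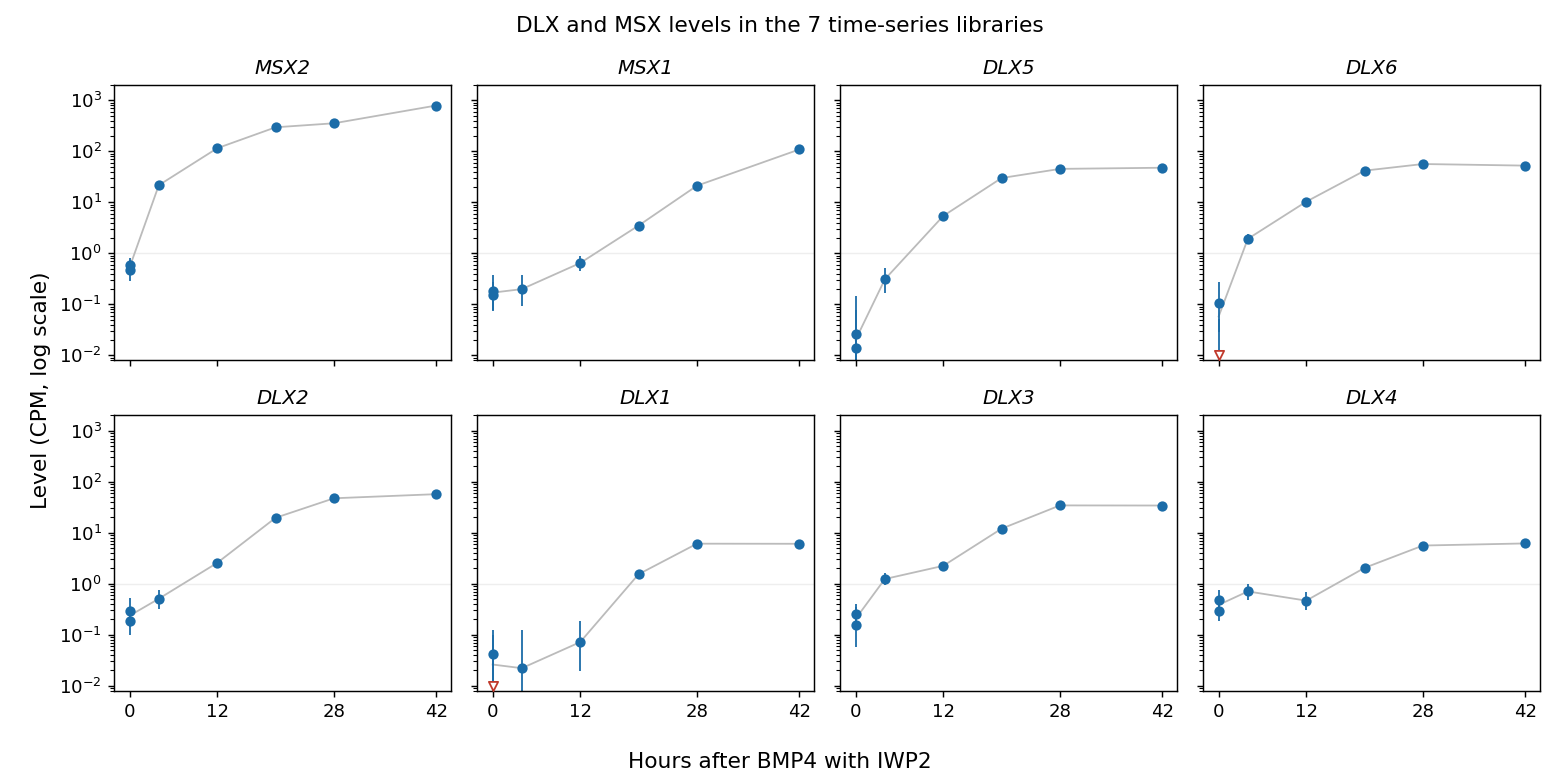
Level of each DLX and MSX gene in the 7 time-series libraries, in CPM on a log scale against hours after BMP4 with IWP2. Points are libraries (2 at 0 h), bars are exact 95% Poisson intervals of the count, grey lines join the times through the 0 h mean, and open red triangles mark libraries with 0 counts. MSX2 reaches 21.6 CPM at 4 h, MSX1 leaves its 0 h range after 4 h, and on library totals, shown here, most DLX genes level off after 28 h. With TMM scaling every DLX gene was higher at 42 h than at 28 h.

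The times at which members first passed edgeR's test were thus spread over the first 20 h. At 4 h, MSX2, DLX3, DLX5 and DLX6 had risen, 4 of 8 members, where 4.1% of all 20488 genes tested had risen. At 12 h, 6 of 8 had risen, with DLX2 and MSX1 added, against 6.64% of all genes. At 20, 28 and 42 h all 8 had risen, against 12.1%, 13% and 19.4% of all genes. The median log2 change of the members was 1.71, 3.37, 6.15, 7.79 and 8.95 at 4, 12, 20, 28 and 42 h, and that of all genes tested lay between -0.02 and 0.01. MSX2 and DLX4 averaged 0.53 and 0.38 CPM at 0 h, above the filter of a mean of 0.25 CPM. The other members passed it through their levels at later times. The counts of members thus describe them and do not support a rise by themselves.

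Over all 7 libraries, the linear trend with hours was rising and past the test for 8 of 8 members, against 17.8% of all genes rising and 33.1% called in either direction. The slopes ran from 0.12 log2 per hour (SE 0.015) for DLX4 to 0.26 (SE 0.054) for DLX5. The DLX6 trend (0.22, SE 0.055, edgeR's quasi-likelihood test, adjusted p = 0.0170) was lost without the first 0 h library (adjusted p = 0.0561) or without the 4 h library (adjusted p = 0.0507). The median log2 change of 15976 expressed genes from 0 to 42 h was -0.24 on library totals and 0.05 after TMM scaling. Accordingly, 53.7% of the genes with a called linear trend rose after TMM scaling and 32.7% on library totals, and at 42 h against 0 h the shares were 52.0% and 35.2%.

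**Figure D2:**
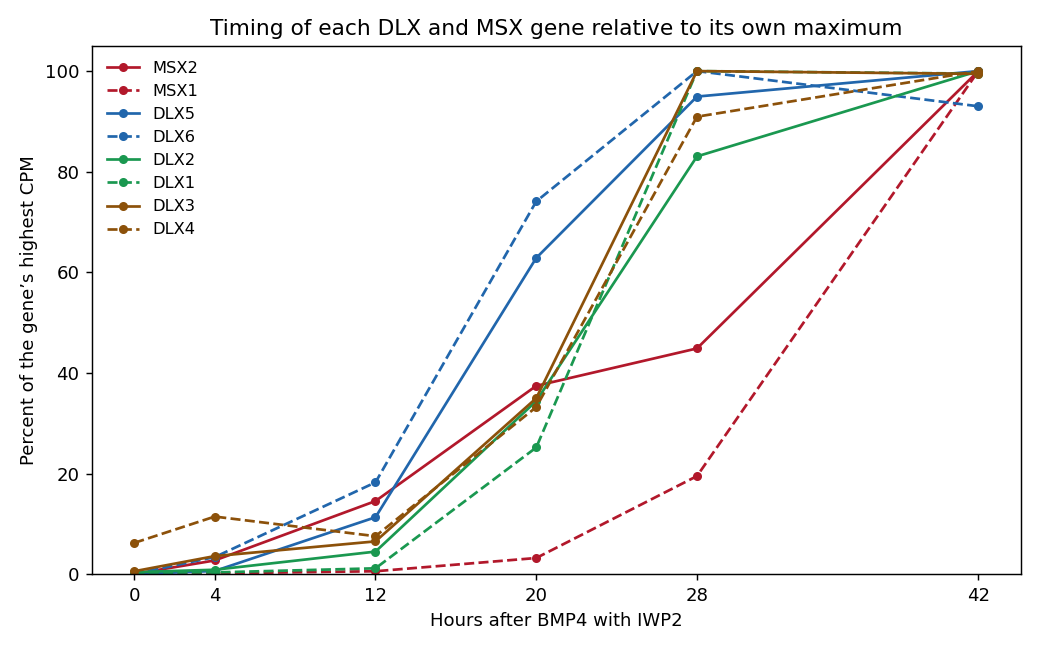
CPM of each DLX and MSX gene as a percent of its own highest CPM, on library totals, against hours after BMP4 with IWP2, with the 0 h libraries averaged. At 28 h the 6 DLX genes stand between 83.0% and 100% of their maximum, MSX2 at 44.9% and MSX1 at 19.5%.

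On library totals the DLX genes were nearer to their highest level at 28 h than the MSX genes. At 28 h the DLX genes stood between 83.0% (DLX2) and 100% (DLX1, DLX3, DLX6) of their highest CPM, MSX2 at 44.9% and MSX1 at 19.5%. On library totals 5 of 8 members were highest at 42 h, where 19.1% of 20482 genes were highest, and DLX1, DLX3 and DLX6 were highest at 28 h. With TMM scaling all 8 were highest at 42 h, for example DLX6 with 58.7 CPM at 28 h and 62.9 CPM at 42 h on that scale. The TMM factor of 0.833 at 42 h raises every gene in that library, and the share of all genes highest there on this scale is not given. Whether DLX1, DLX3 and DLX6 had passed their peak therefore turned with the scaling.

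Per length, MSX2 had the highest level of the members from 4 h on. In the 0 h libraries MSX2 was at 0.34 and 0.48 FPKM and DLX4 at 0.49 and 0.19 FPKM, so which of them was higher differed between the pair. At 42 h the FPKM was 529.4 for MSX2, 64.67 for MSX1, 42.94 for DLX5, 29.3 for DLX6, 26.96 for DLX2, 16.07 for DLX3, 4.04 for DLX1 and 3.85 for DLX4. MSX2 supplied 73.8% of this sum, after 85.0% at 12 h. MSX1 climbed from the sixth place at 28 h, with 12.58 FPKM, to the second at 42 h. With 1 library at 42 h the spread between cultures is unknown, and no neighbours in this order can be said to differ beyond it.

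The dose response compared the members at 5 h across levels of BMP receptor inhibition, and the members that had risen by 4 h in the time series, except DLX3, fell with LDN. MSX2 was at 40.0 CPM with 0 nM LDN, 31.9 with 10 nM, 20.7 with 30 nM, 8.01 with 100 nM and 1.39 CPM with 300 nM, and at 0.449 CPM in untreated cells. The level fell at every step, to 3.47% of that at 0 nM (95% interval 2.52 to 4.66), and was still above the untreated level. The slope was -0.92 log2 per dose step (SE 0.11, edgeR's quasi-likelihood test on the 5 libraries with BMP4, adjusted p = 9.78e-05), and 42 of 18277 genes tested had a steeper fall.

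DLX5 and DLX6 fell over the same doses. DLX5 was at 1.50, 0.941, 0.707, 0.193 and 0.0302 CPM from 0 to 300 nM LDN, the last from 1 count, and had 0 counts in untreated cells, where 3 counts would be 0.192 CPM. DLX6 was at 2.47, 2.41, 1.14, 0.579 and 0.181 CPM, and also had 0 counts in untreated cells. DLX6 at 10 nM was 97.7% of its level at 0 nM (70.2 to 136), where MSX2 was at 79.6% (73.2 to 86.6) and DLX5 at 62.9% (38.5 to 102), intervals that overlap. At 300 nM DLX6 stood at 7.33% (2.60 to 16.8) and DLX5 at 2.02% (0.0499 to 11.9). The slopes were -0.99 (SE 0.16) for DLX5 and -0.84 (SE 0.12) for DLX6, with adjusted p = 0.00129 and 4.20e-04 in edgeR's test.

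DLX6-AS1 fell from 47 counts at 0 nM to 17, 10, 6 and 0 counts, with 1 count in untreated cells. At 10 nM it was at 30.6% of its level at 0 nM (16.5 to 54.3), an interval that does not overlap that of DLX6 at the same dose. Its slope was -1.23 log2 per step (SE 0.18, edgeR's quasi-likelihood test, adjusted p = 5.83e-04), a call lost without the 0 nM library (adjusted p = 0.0572). The slopes of the antisense RNA and of DLX6 were not tested against each other.

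**Figure D3:**
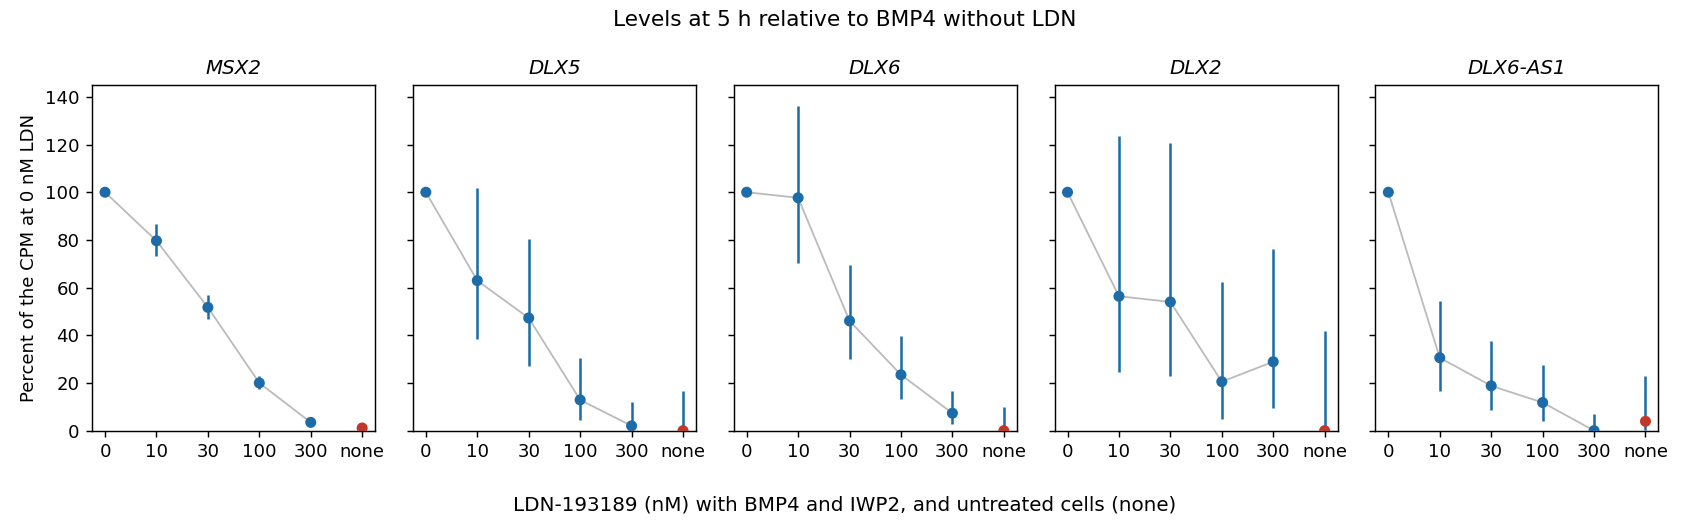
CPM at 5 h as a percent of that with BMP4, IWP2 and 0 nM LDN, for 4 members and DLX6-AS1, against the LDN dose in nM, with untreated cells (none) in red. Points are single libraries and bars are exact 95% intervals of the ratio (counting error only). MSX2 falls to 3.47% at 300 nM, and the DLX2 intervals are wide at 18 counts or fewer.

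The other members were low at 5 h, and none was called for dose. DLX2 had 18, 12, 11, 4 and 6 counts from 0 to 300 nM and 0 in untreated cells, with a slope of -0.49 (SE 0.16, edgeR's quasi-likelihood test, adjusted p = 0.0564) that did not pass the test. It passed when the untreated library was added as a further step (slope -0.58, adjusted p = 0.0452). DLX3 had between 2 and 13 counts, DLX4 between 4 and 11, MSX1 between 1 and 5, and DLX1 at most 3 in any of the 6 libraries, and these 4 were under the mean of 0.25 CPM needed for the test. For DLX1, DLX4 and MSX1 the counting intervals of all 5 doses overlapped, so a difference between doses was not detectable at this depth. DLX3 had 13 counts at 100 nM (0.418 CPM, 95% interval 0.223 to 0.715) and 2 at 300 nM (0.0603 CPM, 0.00731 to 0.218), and these intervals did not overlap.

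Of the 4 members tested, 3 fell with dose, against 8.7% of all genes falling and 17.5% called in either direction. Those 4 had passed the filter mainly through the libraries with little LDN, so the count is a description. Without the filter, 3 of the 8 members passed the test.

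**Figure D4:**
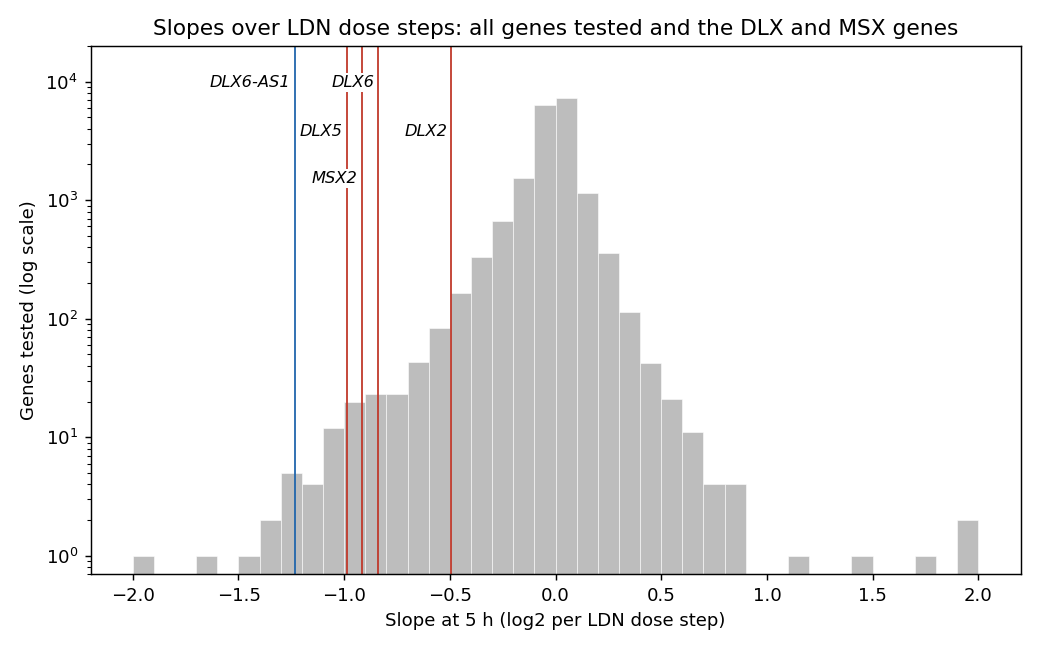
Slopes over LDN dose steps at 5 h for the 18277 genes tested (grey bars, number of genes on a log scale, in log2 per step, slopes beyond 2 placed in the outermost bars), with lines for the tested members (red) and DLX6-AS1 (blue). MSX2, DLX5 and DLX6 lie between -0.84 and -0.99, and DLX2 at -0.49.

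The same members, and DLX2, were higher with BMP4 than in untreated cells at 5 h. MSX2 was at 40.0 CPM with BMP4 and IWP2 and 0.449 CPM without, a ratio of 89.2 (95% interval 43.1 to 222). DLX6, DLX5 and DLX2 each had 0 counts in untreated cells. With the floor of 3 counts put in their place, the ratios were 12.8, 7.78 and 3.26, values that leave out counting error. The upper 95% limits of the untreated level, counting error only, were 9.83%, 16.5% and 41.9% of the level with BMP4. DLX6-AS1 was 25.5-fold higher (4.36 to 1029), from 1 count in untreated cells. DLX3 (ratio 1.45, 0.347 to 8.47), DLX4 (0.543, 0.162 to 1.81) and MSX1 (1.63, 0.131 to 85.5) did not differ beyond counting error. With 0.1 CPM added to both sides, 4 of the 5 members above the filter were more than 2-fold higher, against 9.49% of all genes. DLX2, DLX5 and DLX6 had passed this filter, a mean of 0.25 CPM over these libraries, only through the library with BMP4. The count is therefore a description. There was 1 library on each side, so no test was possible.

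The early calls of the time series and the dose response were placed side by side without a test, since kits and times differ. The 4 h to 0 h ratio of DLX3 was 5.63 (3.43 to 9.49), while its ratio at 5 h to untreated cells was 1.45 (0.347 to 8.47). For DLX4 these ratios were 1.98 (1.20 to 3.24) and 0.543 (0.162 to 1.81). For DLX2 the 4 h ratio was 2.31 (1.25 to 4.27), and at 5 h it had 18 counts with BMP4 and 0 without. For DLX5, DLX6 and MSX2 both comparisons showed a higher level with BMP4, and for MSX1 neither did beyond counting error.

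Among 9 immediate BMP target genes (ID1 to ID4, SMAD6, SMAD7, SMAD9, BAMBI and ATOH8), all 9 rose at 4, 12, 20 and 28 h, and 8 at 42 h, all but ATOH8. Their median log2 change was 3.50 at 4 h and 4.74 at 42 h, while that of the DLX and MSX genes went from 1.71 to 8.95. ID1, an inhibitor of basic helix-loop-helix factors, went from 60.1 CPM at 0 h to 942 CPM at 4 h and 1303 CPM at 42 h. The linear trend was called for 1 of the 9. All 9 fell with LDN dose, SMAD6, an intracellular BMP inhibitor, by 0.92 log2 per step (SE 0.035) and BAMBI, a decoy receptor, by 0.63 (SE 0.069). ID1 and ID3 had slopes of -0.36 (SE 0.040) and -0.28 (SE 0.043). At 300 nM LDN the targets stood at a median of 24.0% of their level at 0 nM (range 6.67 to 45.3). The 3 members with at least 30 counts at 0 nM stood at 3.47% (2.02 to 7.33). In untreated cells the targets stood at a median of 9.47% (1.96 to 32.3) and these members at 0% (0 to 1.12). The values at 300 nM thus include a level present without BMP4, which was higher for the targets. Whether the member and target slopes differ was not tested.

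Of 15 neural border and surface ectoderm factors, 13 were tested over time, 5 had risen at 4 h, and 9 had risen and 1 had fallen at 42 h. GATA2, GATA3 and TFAP2A, which specify non-neural ectoderm, amnion and trophoblast, were at 1.05, 0.177 and 0.149 CPM at 0 h and reached 462, 322 and 367 CPM at 42 h. FOXI3, a preplacodal factor, was at 20.6 CPM at 0 h, 420 at 20 h and 114 CPM at 42 h. With dose, 6 of the 9 tested fell, with slopes of -1.23 (SE 0.096) for TFAP2A, -1.16 (SE 0.090) for GATA3, -1.03 (SE 0.078) for GATA2 and -0.48 (SE 0.033) for FOXI3. TP63, an epidermal factor, was at 0.115 CPM at 0 h, 3.69 at 28 h and 70.2 CPM at 42 h, and PAX7 stayed at or under 0.154 CPM in the time series. Both had at most 3 counts in any dose-response library.

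Other NK-like homeobox genes belong to the wider class that holds DLX and MSX. Of 21 tested among 40, 11 had risen and 1 had fallen at 4 h, and 12 had risen and 4 had fallen at 42 h. Of all genes tested, 0.757% had fallen at 4 h and 17.9% at 42 h. With dose, 7 of 14 fell and 1 rose, where 8.78% of all genes rose. HMX1 went from 0.438 CPM at 0 h to 111 at 20 h and 262 CPM at 42 h. NKX1-2 was at 43.2 CPM at 0 h, 483 at 20 h and 63.2 at 42 h, EN1 at 0.0395, 38.1 and 16.9 CPM, and NKX3-2 at 0.0552, 15.8 and 1.11 CPM. NKX1-2 and NKX3-2 were highest at 20 h, and EN1 was at about the same level at 28 h, with a log2 change from 0 h of 10.33 at 20 h and 10.34 at 28 h.

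Of 10 forebrain interneuron genes that work with or below DLX1 and DLX2, 6 were tested over time, and at 42 h none had risen and 1, SP8, had fallen, by 5.67 log2 (SE 0.72). At 20 h, 4 had risen and 1 had fallen. GAD1, a GABA-synthesising enzyme, was at most 1.13 CPM, and SP9 at most 2.33 CPM, in the time series. Of 12 limb, jaw and bone partners, 7 had risen at 42 h, among them HAND1, from 0.0334 to 2919 CPM, and TBX3, from 0.608 to 702 CPM. Both fell with LDN, by 1.23 (SE 0.12) and 0.94 (SE 0.099) log2 per step.

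MSX2P1, a pseudogene copy of MSX2, did not share the rise of its parent. It was at 0.764 and 0.519 CPM at 0 h, 1.13 at 4 h and 0.0817 CPM at 42 h, 5 counts. It had between 15 and 29 counts in the 6 dose-response libraries, with a slope of -0.06 log2 per step that was not called. How reads were divided between the copy and MSX2 is uncertain, and at 42 h MSX2 held 48296 counts.

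The genes whose pattern was most like that of each member were sought by Pearson's r over 12 points (6 times and 6 dose-response libraries, on log2 of CPM plus 0.5, centred within each experiment) among 14524 genes. The points share libraries and depth and are dominated by the time course, so r is a description. DLX5 was closest to HPGD (r = 0.996), which degrades prostaglandins, and to BMP4 (0.992), the gene of the ligand itself, which went from 4.81 CPM at 0 h to 280 CPM at 42 h. MSX2 was closest to SPHK1 (0.986), a sphingosine kinase that also fell from 14.0 CPM at 0 nM LDN to 1.51 CPM at 300 nM. MSX1 was closest to ANXA2 (0.997) and JUP (0.993), a membrane-binding annexin and a junction protein. DLX2 was closest to METRNL (0.994), DLX6 to GNAS (0.994), DLX3 to TIMP2 (0.990), DLX1 to ZBTB42 (0.990) and DLX4 to CCDC50 (0.985). The size of a change does not enter r, and GNAS went only from 882 CPM at 0 h to 1693 CPM at 42 h. The genes searched needed a mean of 1 CPM in both experiments, which DLX5 and most other members did not reach in the dose response.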

How the data were processed

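Bulk RNA-seq libraries of GFP::SMAD4 RUES2 cells were analysed, 7 of a time series and 6 of a dose response. The authors ran Cutadapt 2.3 for trimming, STAR 2.7.8a for alignment to GRCh38 and RSEM 1.3.3 for counting. The annotation release and the strand setting are not given in the sources used here. The deposited tables hold RSEM expected counts per gene, as whole numbers, not scaled for depth. The deposited FPKM values, normalized by the authors for length and depth, were used where levels are compared between genes. Totals were 37957385 to 71333471 and 15600931 to 33989998 counts, and intervals (95%) and floors (3 counts) cover counting error only.

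Genes that averaged 0.25 CPM or more were tested with edgeR 4.0.16 (quasi-likelihood, TMM, Benjamini-Hochberg adjustment over all genes tested at 0.05): a slope over hours, each time against 0 h, and a slope over dose steps (0 to 4). DESeq2 1.42.0 was an alternative, beside other scalings, filters, covariates, pseudocounts and libraries left out. BMP4 against untreated cells, 1 library each, was described by CPM ratios with exact conditional binomial intervals and called past 2-fold with 0.1 CPM added. On simulated data with 200 changed genes, the procedures recovered 198 for the slope over hours (0.1 log2 per hour, 20181 genes), with 10 false calls. They recovered 197 for dose (0.8 log2 per step, 18084 genes), with 5 false calls. For 42 h against 0 h (3 log2, 20260 genes) they recovered 191, with 10 false calls. Counts were drawn with dispersions fitted to these data, so spread between cultures, bent courses and change in more genes were not covered.

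The members and lists were chosen with earlier results of these data known. Named were all members, overlapping or nearest genes, up to 4 genes a list with the highest mean CPM in the time series among those past the dose test, and the closest patterns among genes with at least 1 CPM in both experiments (up to 3 genes a member were computed). ATOH8, TP63 and PAX7, and single cell type markers, were named outside this rule, after their values were seen. Positions came from GENCODE release 44 (GRCh38) and upstream windows of 250 bases from RefSeq, in which 5 of 8 members matched, and for DLX3, DLX4 and DLX5 no window is shown. Libraries were grouped by their labels. Scripts ran in Python 3.11.15 (scipy 1.17.1, pandas 2.3.3, numpy 2.4.6, matplotlib 3.10.9) and R 4.3.3.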

Additional observations from a re-analysis of the deposited data

How the results depend on the processing

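The direction of every called member value was kept under each alternative run. The number of members called stayed at 8 at 20, 28 and 42 h and 6 at 12 h, was 3 at 4 h with DESeq2's Wald test, where DLX6 was lost, and 2 for dose with a mean of at least 1 CPM, where DLX5 was not tested. Over all genes, DESeq2 called 429, 961, 2045, 2486 and 5006 genes at 4, 12, 20, 28 and 42 h, where edgeR called 996, 1931, 3739, 4081 and 7628, and the cause was not tested. Leaving out 1 library moved the genes with a called linear trend between 3739 (without 42 h) and 7614, from 6774, and kept 7 to 8 members called. For dose the range was 1887 (without 0 nM) to 2983, with 1985 without 300 nM, from 3195, and 3 members were called each time. On TMM-scaled CPM and on DESeq2 size factors 8 members were highest at 42 h in place of 5, and the share of all genes on these scales is not given. With 1 CPM added, 820 genes in place of 2322 were past 2-fold between BMP4 and untreated cells, and DLX2 was no longer among them (log2 0.70). The slope of MSX2P1 over dose, not called, turned to 0.0047 with the untreated library. The linear trend of DLX6-AS1 was lost on library totals and without either 0 h library, 4, 20 or 28 h. On deposited FPKM, MSX1 was 1.21 log2 lower with BMP4 (-1.21), from 3 and 1 counts. No paired analysis was possible because only the 0 h libraries carry replicate numbers. Members under a mean of 0.25 CPM at 5 h were not tested for dose, and no time after 0 h or dose had a replicate.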
